A study of Sus scrofa with 4 samples.

Results

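The transcriptome of the longissimus dorsi (LD) muscle was compared between Laiwu pigs of 60 d and of 400 d, the youngest and the oldest age of the series. The comparison takes the 6 libraries that the sample labels place at these ages, 3 at each, out of 12 libraries at 4 ages. Laiwu is a Chinese breed known for fat-rich muscle, and the LD is the long muscle along the back from which loin meat is cut. All pigs were castrated males of wild type genotype kept in similar surroundings and on similar feed, so castrated males are the only sex class described, and age is the only labelled difference between the groups. Total RNA of whole muscle pieces was sequenced, and each library is taken as 1 pig, since the study describes 3 pigs at each age. For every gene the authors deposited a fragment count, used here for the tests, and an FPKM value, the count scaled to the length of the transcript and the mapped depth of the library, used here for levels. Values below are listed in the order of library 1, 2 and 3 of an age, and every change is coded as 400 d minus 60 d.

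The study's supplementary table of differentially expressed genes attaches other ages to the same libraries. Its FPKM columns for 240 d lay closest to the libraries labelled 60 d, with a median absolute log2 difference of 0.0199 over 914 genes, and its columns for 60 d lay closest to the libraries labelled 400 d, with 0.0198 over 173 genes. The comparison described here would be 240 d against 60 d under that naming, which turns the sign: the features higher in the libraries labelled 400 d would be higher at the younger age. The main text's list of leading genes between 120 d and 240 d carries the same naming, as seen for PDK4, EGR1 and TNNT2. The count totals divided by the uniquely mapped reads that the study lists for each age, in their listed order, had a coefficient of variation of 5.93% under the labels, 13.5% under the naming of the supplementary table and 5.75% with 60 d and 240 d of the labels exchanged. A further supplementary table, on breeds, holds 3 Laiwu libraries called 120 d, which lay closest to libraries labelled 120 d, with differences of 0.33, 0.359 and 0.348 against 0.475, 0.598 and 0.484 for the nearest library of any other labelled age. The labelled ages were kept throughout, and every direction below holds for the labels.

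Skeletal muscle grows after birth mainly by enlarging fibres that already exist. Satellite cells, the stem cells of muscle, divide, express myogenic factors such as MYOD1 and MYF5, and fuse into the fibres, which replace embryonic and perinatal isoforms of contractile proteins by adult ones. Connective tissue, vessels, nerve and fat cells lie between the fibres, and fat is stored both in these fat cells and as droplets within fibres.

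Of 12976 features tested, 893 were higher and 932 were lower at 400 d (edgeR's quasi-likelihood test, Benjamini-Hochberg adjusted p of at most 0.05). These are 6.88% and 7.18% of the features, 14.1% together, and 569 of the higher and 826 of the lower ones differed by at least 1 on the log2 scale. The FPKM values of the 3 and 3 libraries did not overlap in 5133 tested features, 39.6% of them. Of the 1825 features called, 1782 did not overlap, so absence of overlap in a called gene only describes it. No feature passed an adjusted p of 0.01, the smallest being 0.0111, and 4481 features had an unadjusted p under 0.05. With the spread estimated over all 12 libraries, 1443 features were higher and 1735 lower, which is 11.1% and 13.4%, or 24.5% together, and 1783 of the 1825 features called from 6 libraries were among them with the same sign. The calls from 6 libraries depended on the 400 d libraries: 8, 0 and 149 features were called without 400 d library 1, 2 or 3, against 1895, 1020 and 1117 without 60 d library 1, 2 or 3. Without 400 d library 2, where edgeR called none, 3159 features had an unadjusted p under 0.05. In the fit of all 12 libraries the same omissions left between 1378 and 2776 called features.

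Across the 13232 features that reached 1 FPKM somewhere in the 12 libraries, Pearson's r of log2(FPKM + 0.1) between a 60 d and a 400 d library had a median of 0.879 over 9 pairs, with a range of 0.854 to 0.915. This was the lowest median of the 6 pairs of ages, the next being 60 d with 240 d at 0.892. Libraries within 60 d correlated less among themselves (0.894 to 0.924) than those within 400 d (0.936 to 0.947). These values are correlations across genes, which are not independent replicates, and they carry no test.

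**Figure D1:**
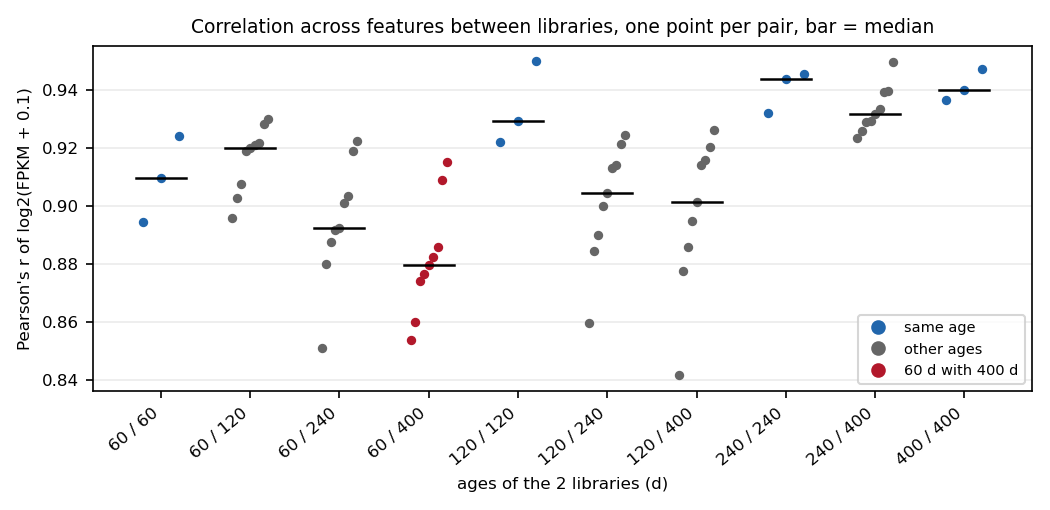
Pearson's r of log2(FPKM + 0.1) across 13232 features (vertical axis) for each pair of libraries, grouped by the ages of the pair in days (horizontal axis), with a bar at the median. The 60 d with 400 d pairs have the lowest median of all groups, 0.879, while the lowest single pair, 0.842, joins 120 d and 400 d libraries.

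The 6 libraries held 9758829 to 13325327 counts, so that 3 counts, taken as the floor, are 0.225 to 0.307 CPM (counts scaled to the library total). The mitochondrial genome took 11.1, 11.5 and 5.52% of the counts at 60 d and 9.76, 9.51 and 9.01% at 400 d. Changes differed with transcript length: the median log2 change was -0.21 in the 2598 shortest tested features (up to 1292 bases) and 0.20 in the 2594 longest (from 4763 bases), and the median length was 4221 bases for features that rose, 2337 for those that fell and 2653.5 for all. With length offsets in the fit 832 features rose and 997 fell, and 1567 of the 1825 calls were also made there. The labelled tissue was checked on 7 of 12 listed genes that define skeletal muscle. DES (desmin) was at 2103, 2149.8 and 2489.5 FPKM at 60 d and 3279.8, 4263 and 3504 FPKM at 400 d, and NEB, TCAP, CKMT2, MYBPC1 and ENO3 were at or above 373 FPKM in all 6 libraries. ACTA1, the main actin of skeletal muscle, was listed at 0 in 5 of the 6 libraries and at 49781 FPKM in 400 d library 3, so no change is given for it.

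Features are named below when they were among the 15 with the smallest adjusted p in each direction, under added conditions on fold, count and overlap, or belonged to 1 of 18 pathway lists and 9 lists of cell type markers. Lists are described by how many members were called, to be read against the shares over all features. Coordinates are those of the deposited files, whose build the study gives as Sscrofa10.2.

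**Figure D2:**
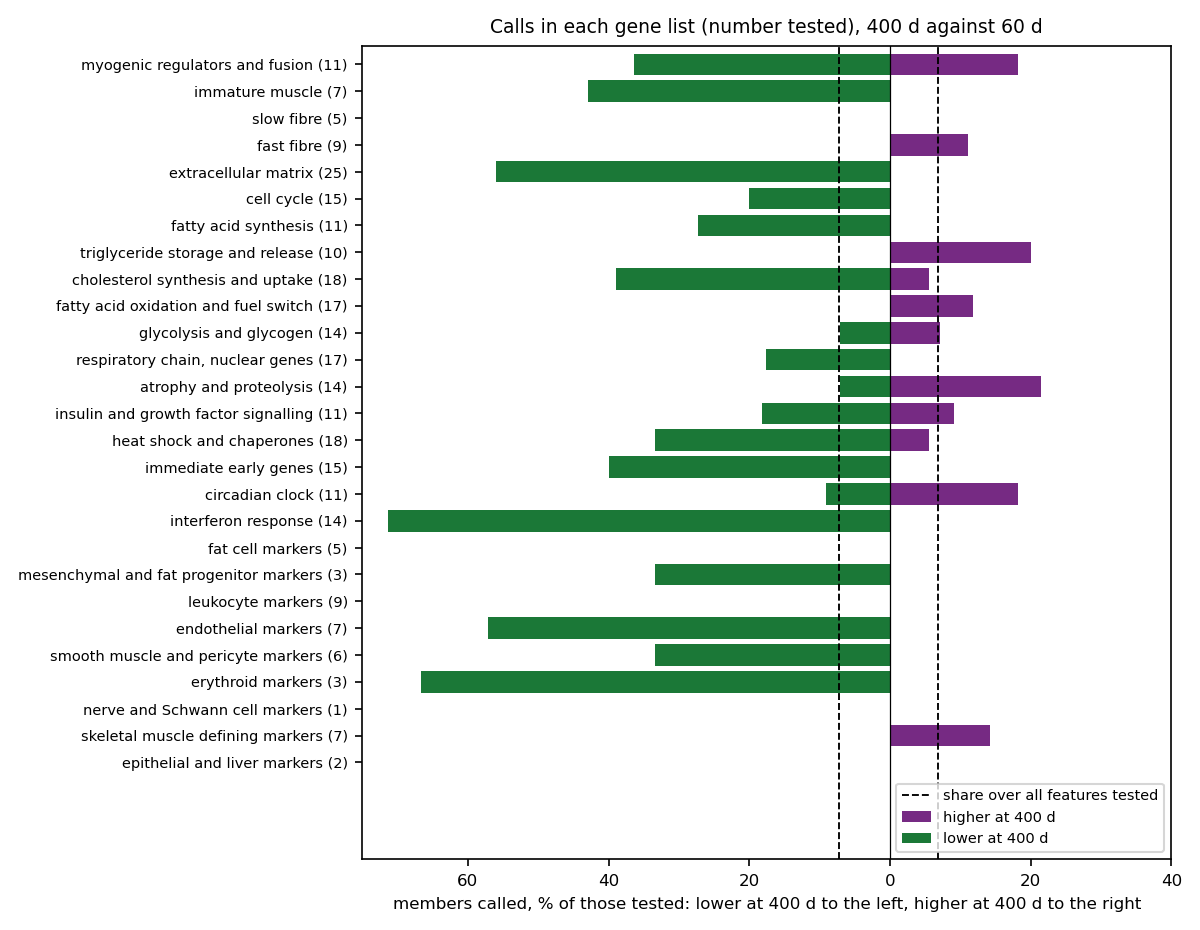
Share of the tested members of each list (number tested in brackets) that was called lower at 400 d (green, to the left) or higher at 400 d (purple, to the right), in percent. Dashed lines mark 7.18% and 6.88%, the shares over all 12976 features. The interferon response, extracellular matrix and endothelial lists reach farthest to the left among the lists with more than 3 tested members, and the slow fibre, fat cell, leukocyte, nerve and epithelial lists hold no call.

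Some genes of immature muscle and of myoblasts were lower at 400 d. In the immature muscle list 4 of 7 tested members were not called, and among myogenic regulators 5 of 11. ACTC1 (chromosome 1, 152412334 to 152417610), the cardiac actin that fetal skeletal muscle also uses, was at 264, 82.4 and 172 FPKM at 60 d and 6.96, 4.46 and 4.55 FPKM at 400 d, a mean 32.4-fold higher at 60 d (a log2 change of -4.97 ± 0.47, adjusted p = 0.0115). The lowest 60 d value was 11.8 times the highest 400 d value. TNNT2 (chromosome 10, 28159006 to 28173142), the cardiac troponin T of early muscle, was at 114, 40.7 and 58.1 FPKM at 60 d and 4.72, 5.15 and 2.42 FPKM at 400 d (a log2 change of -3.81 ± 0.51, adjusted p = 0.0132). MYH3, the embryonic myosin heavy chain, was at 20.9, 8.89 and 24.5 FPKM at 60 d and 7.48, 3.53 and 4.6 FPKM at 400 d (a log2 change of -1.76 ± 0.42, adjusted p = 0.035), and its lowest 60 d value lay close to its highest 400 d value. In this list of immature muscle genes 3 of 7 tested members fell and none rose, with a median log2 change of -0.82 beside -0.03 over all features. MYH8, the perinatal myosin, was far more abundant and not called, at 4989.6, 3697 and 5978 FPKM at 60 d and 6931, 7298 and 7215 FPKM at 400 d (a log2 change of 0.58 ± 0.28, adjusted p = 0.173), and its reads are uncertain because the adult myosin genes beside it are nearly identical in sequence. The summed level of the list, most of it MYH8, was 3845 to 6245 FPKM at 60 d and 6961 to 7332 FPKM at 400 d. NCAM1 was also not called (a log2 change of 0.43 ± 0.46, adjusted p = 0.525). In the fit of all 12 libraries the same 3 members were called, and 2 or 3 when any of the 6 libraries was left out.

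Among myogenic regulators, 4 of 11 tested members fell and 2 rose. MYOD1 (chromosome 2, 44482283 to 44485063), which commits cells to the muscle fate, was at 71.2, 43.2 and 58.97 FPKM at 60 d and 11.8, 12.5 and 6.91 FPKM at 400 d (a log2 change of -2.44 ± 0.29, adjusted p = 0.0132). The lowest 60 d value was 3.47 times the highest 400 d value. MYF5, its partner in early commitment, was at 3.2, 3.3 and 5.14 FPKM at 60 d and 0.981, 0.637 and 1.37 FPKM at 400 d (a log2 change of -1.67 ± 0.37, adjusted p = 0.0294). MYMK, the membrane protein that lets myoblasts fuse, was at 16.1, 5.52 and 10.6 FPKM at 60 d and 3.5, 1.85 and 2.02 FPKM at 400 d (a log2 change of -1.96 ± 0.44, adjusted p = 0.0302), and 60 d library 2 was the lowest of its age. ID2, an inhibitor of myogenic factors, was at 10.9, 4.83 and 6.85 FPKM at 60 d and 2.85, 2.71 and 2.87 FPKM at 400 d (a log2 change of -1.37 ± 0.33, adjusted p = 0.0345), and it was not called in the fit of all 12 libraries (adjusted p = 0.0559). These 4 genes showed no overlap between the ages.

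MEF2A and MEF2C, transcription factors of differentiated fibres, were higher at 400 d. MEF2A was at 13.29, 14.3 and 14.1 FPKM at 60 d and 35.98, 58.1 and 35.3 FPKM at 400 d (a log2 change of 1.66 ± 0.24, adjusted p = 0.0143), with the lowest 400 d value 2.48 times the highest 60 d value. MEF2C was at 35.03, 59.05 and 51.8 FPKM at 60 d and 66.3, 59.9 and 69.8 FPKM at 400 d (a log2 change of 0.71 ± 0.17, adjusted p = 0.0341), and the gap between the ages was less than 1 FPKM. MYF6, the myogenic factor of mature fibres, varied widely at both ages, at 76.7, 239.6 and 178 FPKM at 60 d and 38.5, 186 and 100.4 FPKM at 400 d, and was not called (a log2 change of -0.59 ± 0.57, adjusted p = 0.488). MSTN, the growth factor that limits muscle mass, was at 3.36, 1.95 and 2.63 FPKM at 60 d and 6.05, 6.72 and 4.99 FPKM at 400 d, without overlap but also without a call (a log2 change of 1.06 ± 0.32, adjusted p = 0.0612). With the 12-library fit 2 regulators rose and 3 fell, and 1 to 4 fell when a library was left out of it.

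**Figure D3:**
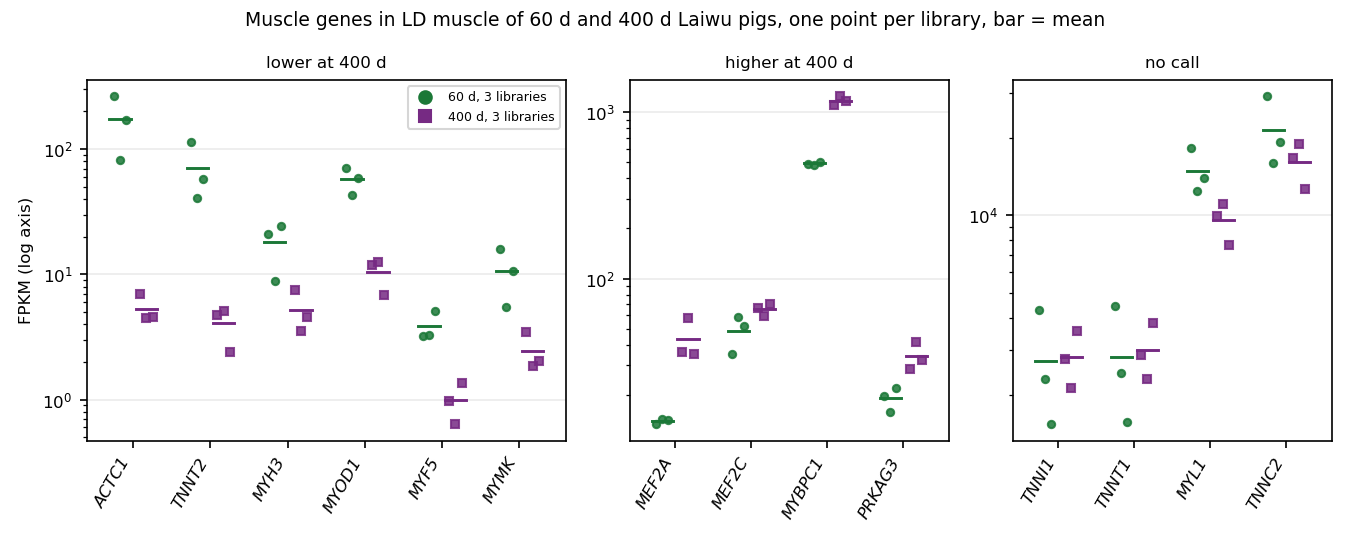
FPKM on a log axis for 14 muscle genes, with 1 point per library, green circles for 60 d, purple squares for 400 d and a bar at the mean of 3. The ages are separate for the 6 genes on the left and the 4 in the middle and overlap for the slow and fast fibre genes TNNI1, TNNT1 and TNNC2 on the right.

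The fibre type genes that were tested gave few calls. Only 5 of 11 listed slow fibre genes and 9 of 16 listed fast fibre genes were found by symbol. The myosin heavy chain genes MYH7, MYH1, MYH2 and MYH4 were among those not found. The called shares were 0% and 11.1%, beside 14.1% over all features tested. None of 5 slow fibre genes was called by edgeR with 6 or 12 libraries or by DESeq2, and 1 had an unadjusted p under 0.05. TNNC1, the slow troponin C, was at 7791, 5490.5 and 2565 FPKM at 60 d and 4138, 3407 and 5152 FPKM at 400 d (a log2 change of -0.29 ± 0.39, adjusted p = 0.614). TNNI1 and TNNT1, slow troponins I and T, had log2 changes of 0.11 ± 0.39 and 0.06 ± 0.39 and adjusted p values of 0.863 and 0.925. For all 3 genes 60 d library 1 was the highest and 60 d library 3 the lowest of the 6. Of 9 fast fibre genes only PRKAG3 was called, the muscle subunit of the energy sensor AMPK that is known for its effect on pig meat quality. It was at 19.8, 15.8 and 21.9 FPKM at 60 d and 28.7, 41.8 and 32.4 FPKM at 400 d (a log2 change of 0.92 ± 0.21, adjusted p = 0.0293), and the fit of all 12 libraries gave an adjusted p of 0.0555. TNNC2, MYL1 and TPM1, the most abundant fast fibre members, had log2 changes of -0.37 ± 0.31, -0.62 ± 0.27 and -0.42 ± 0.34 without a call. MYBPC1, a myosin binding protein and 1 of the genes that define skeletal muscle, rose, with 492 ± 8.2 FPKM at 60 d and 1172 ± 68.2 FPKM at 400 d (mean ± SD, n = 3 and 3 libraries) and a log2 change of 1.30 ± 0.21, adjusted p = 0.0155.

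The extracellular matrix was lower at 400 d. Of 25 tested members 14 fell and none rose, all 25 log2 changes were below 0, and the median was -1.61. In 17 members all 400 d libraries lay below all 60 d libraries, while 39.6% of all features tested had no overlap in either direction. COL3A1 (chromosome 15, 104066958 to 104106469), a fibrillar collagen, was at 1142, 474 and 385 FPKM at 60 d and 249, 83.5 and 152 FPKM at 400 d (a log2 change of -2.01 ± 0.53, adjusted p = 0.044). Library 1 of 60 d stood above the other 60 d libraries here, and it was the highest of the 6 in 21 of the 25 members, while 400 d library 2 was the lowest in 24. SPARC, which binds collagen, was at 984, 523 and 460.4 FPKM at 60 d and 271, 135 and 217 FPKM at 400 d (a log2 change of -1.61 ± 0.36, adjusted p = 0.03). COL4A2, a collagen of basement membranes, was at 86.8, 119 and 116 FPKM at 60 d and 34.5, 18.4 and 31.2 FPKM at 400 d (a log2 change of -1.90 ± 0.29, adjusted p = 0.0143), and here 60 d library 1 was the lowest of its age. TIMP1, an inhibitor of matrix proteases, was at 36.01, 23.5 and 71.2 FPKM at 60 d and 7.49, 3.47 and 5.12 FPKM at 400 d (a log2 change of -2.94 ± 0.48, adjusted p = 0.0162). ELN (elastin) and THBS1 (thrombospondin) fell by 1.66 and 2.07 on the log2 scale. The others that fell were COL5A1, COL5A2, COL6A1, COL6A2, COL6A3, COL15A1, BGN and MMP2, with log2 changes between -2.07 and -1.23. COL1A2, a chain of collagen I, was not called at 413, 84.6 and 92.1 FPKM at 60 d and 61.3, 17.4 and 36.9 FPKM at 400 d (a log2 change of -2.30 ± 0.70, adjusted p = 0.0635), and DCN, a proteoglycan among the most abundant members, was not called either (a log2 change of -0.74 ± 0.46, adjusted p = 0.287). In the fit of all 12 libraries 17 members fell, between 11 (without 400 d library 2) and 18 when a library was left out. The median log2 change of the list stayed between -1.78 and -1.17 with any 1 of the 6 libraries left out. The summed level of the list was 4214, 1938 and 1828 FPKM at 60 d and 1082, 504 and 912 FPKM at 400 d.

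Some endothelial, smooth muscle, mesenchymal and erythroid markers fell as well, while no leukocyte, fat cell, nerve or epithelial marker was called, and the part of these cells in the matrix result was not tested. In whole muscle fewer cells of a type and less RNA per cell cannot be told apart. Of endothelial markers 4 of 7 fell and none rose, and their summed level was 98.4 to 177 FPKM at 60 d and 56.01 to 81.3 FPKM at 400 d. The 4 were KDR, a receptor for vascular growth factor (a log2 change of -1.48 ± 0.36, adjusted p = 0.0358), TIE1 (a log2 change of -1.23 ± 0.32, adjusted p = 0.0443), ESAM (a log2 change of -1.17 ± 0.31, adjusted p = 0.0446) and EGFL7 (a log2 change of -0.73 ± 0.20, adjusted p = 0.0478). With scaling by total counts instead of TMM factors 1 endothelial marker was called, and the 12-library fit called 6, or 1 to 6 with a library left out. The most abundant marker, PECAM1, was at 38.9, 88.2 and 66.9 FPKM at 60 d and 37.3, 22.6 and 31.6 FPKM at 400 d and not called (a log2 change of -1.03 ± 0.37, adjusted p = 0.0936).

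Of smooth muscle and pericyte markers 2 of 6 fell. CNN1 (calponin) was at 110.1, 59.97 and 104 FPKM at 60 d and 19.8, 18.4 and 12.7 FPKM at 400 d (a log2 change of -2.40 ± 0.30, adjusted p = 0.0132) and TAGLN (transgelin) at 224, 159 and 136 FPKM at 60 d and 63.7, 50.9 and 74.5 FPKM at 400 d (a log2 change of -1.29 ± 0.22, adjusted p = 0.0178), while MYH11, the myosin that defines smooth muscle, and ACTA2, its actin, were not called (log2 changes of -0.13 ± 0.43 and -0.40 ± 0.30). The summed level of the list was 318 to 491 FPKM at 60 d and 143 to 192 FPKM at 400 d.

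The nerve and Schwann cell marker tested, NGFR, was at 1.37, 0.873 and 0.758 FPKM at 60 d and 0.407, 0 and 0.467 FPKM at 400 d and was not called (a log2 change of -1.65 ± 0.79, adjusted p = 0.174). Of the mesenchymal and fat progenitor markers PDGFRB fell, at 8.39, 9.88 and 12.2 FPKM at 60 d and 5.46, 2.51 and 3.76 FPKM at 400 d (a log2 change of -1.34 ± 0.31, adjusted p = 0.0328), while PI16 and DPP4 did not pass (0.0542 and 0.102). Erythroid genes gave 2 calls of 3. HBB, the beta chain of haemoglobin, was at 1158, 355 and 216 FPKM at 60 d and 87.2, 56.6 and 98.97 FPKM at 400 d (a log2 change of -2.78 ± 0.60, adjusted p = 0.0269), and ALAS2, the first enzyme of haem synthesis in red cells, at 9.56, 4.77 and 2.05 FPKM at 60 d and 1.17, 0.603 and 1.44 FPKM at 400 d (a log2 change of -2.34 ± 0.58, adjusted p = 0.0372). Both were highest in 60 d library 1, and the ages did not overlap.

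Leukocyte markers gave no call by edgeR among 9 tested, with 2 at an unadjusted p under 0.05, 1 call in the fit of all 12 libraries and 2 with DESeq2. All 9 log2 changes were below 0, with a median of -0.91. The sum of these markers was 17.7 to 31.4 FPKM at 60 d and 4.05 to 13.5 FPKM at 400 d. Of 6 epithelial and liver markers TTR was at 0 in all 6 libraries, ALB stayed at or below 0.254 FPKM, and KRT8, the highest, at or below 4.91 FPKM.

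The 5 fat cell markers tested did not differ detectably between the ages, and 4 of their log2 changes were below 0. None of 5 tested members was called by edgeR with 6 or 12 libraries or by DESeq2, and 0 had an unadjusted p under 0.05. PLIN1, the coat protein of fat cell droplets, was at 2.56, 20.8 and 6.07 FPKM at 60 d and 10.6, 1.94 and 17.8 FPKM at 400 d (a log2 change of 0.12 ± 0.82, adjusted p = 0.928). Its highest value was 8.11 times its lowest at 60 d and 9.18 times at 400 d. CIDEC, which joins lipid droplets, was at 4.35, 18.9 and 6.94 FPKM at 60 d and 7.49, 1.59 and 8.4 FPKM at 400 d (a log2 change of -0.78 ± 0.68, adjusted p = 0.442), and PPARG, the master regulator of fat cells, at 3.58, 4.5 and 2.18 FPKM at 60 d and 1.79, 0.48 and 2.4 FPKM at 400 d (a log2 change of -1.08 ± 0.53, adjusted p = 0.185). CFD (adipsin), the most abundant of them, was at 305, 199.5 and 85.6 FPKM at 60 d and 121, 50.5 and 91.1 FPKM at 400 d (a log2 change of -0.91 ± 0.43, adjusted p = 0.172). In all 4 genes the lowest of the 6 values was that of 400 d library 2, and in PLIN1 and CIDEC the highest was that of 60 d library 2. RETN and LGALS12 were too low to be tested. ADIPOQ, LEP, FABP4, CIDEA and AQP7, also listed as fat cell markers, were not found by symbol.

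Genes of fatty acid synthesis were lower at 400 d in 3 of 11 tested members, and none rose. These calls are 27.3% of the list, beside 14.1% over all features tested. ACLY, which supplies acetyl-CoA from citrate, was at 4.39, 17.1 and 12.6 FPKM at 60 d and 3.37, 2.54 and 3.21 FPKM at 400 d (a log2 change of -1.85 ± 0.46, adjusted p = 0.038). The desaturases of long polyunsaturated fatty acids, FADS1 and FADS2, were at 3.73, 2.16 and 3.41 FPKM at 60 d and 1.06, 0.433 and 0.837 FPKM at 400 d and at 10.9, 11.6 and 11.2 FPKM at 60 d and 5.86, 5.2 and 7.58 FPKM at 400 d (a log2 change of -1.93 ± 0.40, adjusted p = 0.0241, and a log2 change of -0.92 ± 0.25, adjusted p = 0.0453). FASN (chromosome 12, 1023477 to 1034681), the fatty acid synthase, was at 9.95, 93.7 and 27.2 FPKM at 60 d and 6.24, 0.656 and 4.54 FPKM at 400 d and just missed the threshold (a log2 change of -3.47 ± 0.97, adjusted p = 0.0502), with an adjusted p of 0.0153 in the fit of all 12 libraries. The highest value of FASN was 9.42 times the lowest at 60 d and 9.51 times at 400 d, with 60 d library 2 the highest and 400 d library 2 the lowest. SCD, the desaturase that makes oleic acid, showed the same order of extremes at 11.2, 56.1 and 37.02 FPKM at 60 d and 20.8, 1.11 and 5.32 FPKM at 400 d (a log2 change of -1.90 ± 0.96, adjusted p = 0.195). ACSS2, the acetate-activating enzyme, had a log2 change of -0.04 ± 0.29, and ME1 (malic enzyme), a source of NADPH, was at 4.15, 9.29 and 4.67 FPKM at 60 d and 18.2, 12.6 and 10.3 FPKM at 400 d, without overlap and without a call (a log2 change of 1.19 ± 0.36, adjusted p = 0.0592). The 12-library fit called 7 members lower and ME1 higher (0.0279), and 2 to 6 lower when a library was left out.

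The called cholesterol genes changed in the same direction with 1 exception. Of 18 tested members 7 fell and 1 rose, with a median log2 change of -0.75. That is 44.4% called, beside 14.1% over all features tested. The summed level of the list overlapped between the ages, at 197, 120 and 140 FPKM at 60 d and 151, 160 and 134 FPKM at 400 d. SREBF2, the transcription factor that drives the pathway, was at 13.4, 11.5 and 17.95 FPKM at 60 d and 6.65, 3.56 and 5.2 FPKM at 400 d (a log2 change of -1.42 ± 0.29, adjusted p = 0.0237). Of the enzymes, ACAT2 was at 5.75, 2.78 and 5.6 FPKM at 60 d and 1.36, 1.25 and 1.16 FPKM at 400 d (a log2 change of -1.85 ± 0.35, adjusted p = 0.0216) and LSS, which closes the sterol rings, at 4.21, 4.01 and 2.94 FPKM at 60 d and 1.65, 0.952 and 0.945 FPKM at 400 d (a log2 change of -1.61 ± 0.30, adjusted p = 0.0213). FDPS, SQLE and HSD17B7 also fell, with log2 changes of -1.07 ± 0.26, -2.32 ± 0.52 and -1.40 ± 0.34, as did the lipoprotein receptor SCARB1 (-0.99 ± 0.21).

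FDFT1 (squalene synthase) was the member that rose, at 49.2, 32.7 and 25.4 FPKM at 60 d and 80.04, 96.8 and 73.1 FPKM at 400 d (a log2 change of 1.26 ± 0.26, adjusted p = 0.026). It had the highest mean FPKM of the list at both ages. HMGCS1, an early enzyme of the pathway, and IDI1, a later one, were not called, with log2 changes of 0.18 ± 0.19 and -0.07 ± 0.44. The fit of all 12 libraries called 8 members lower, adding CYP51A1 (0.0289), and 5 (without 400 d library 2) to 9 with a library left out.

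Genes of triglyceride storage gave 2 rises and no fall among 10 tested members, with a median log2 change of -0.13. That is 20% called, beside 14.1% over all features tested. GPAM, the first enzyme of triglyceride assembly, was at 0.951, 1.58 and 1.43 FPKM at 60 d and 3.51, 2.63 and 7.52 FPKM at 400 d (a log2 change of 1.81 ± 0.42, adjusted p = 0.0313), and PLIN4, a droplet coat protein that muscle fibres express, at 12.5, 18.2 and 17.1 FPKM at 60 d and 38.3, 24.9 and 49.5 FPKM at 400 d (a log2 change of 1.26 ± 0.29, adjusted p = 0.0317). Neither gene overlapped between the ages, and 400 d library 3 was the highest in both. G0S2, an inhibitor of triglyceride breakdown, was at 128, 7.87 and 7.99 FPKM at 60 d and 20.4, 8.32 and 7.6 FPKM at 400 d and was not called (a log2 change of -1.89 ± 1.04, adjusted p = 0.234), and without 60 d library 1 its log2 change was 0.66. PNPLA2, the triglyceride lipase that G0S2 inhibits, was at 118, 142 and 90.05 FPKM at 60 d and 121, 162 and 149.7 FPKM at 400 d (a log2 change of 0.33 ± 0.22, adjusted p = 0.327), and MGLL, the monoglyceride lipase, had a log2 change of -0.63 ± 0.27. The fit of all 12 libraries called 2 members higher and 1 lower, MGLL (adjusted p = 0.0485), and 0 to 2 lower with a library left out.

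Fatty acid oxidation showed 2 rises and no fall among 17 tested members, with a median log2 change of 0.50. The called share was 11.8%, below the 14.1% over all features tested. ACSL1 (chromosome 15, 52526101 to 52593343), which activates fatty acids for oxidation, was at 36.8, 46.8 and 44.1 FPKM at 60 d and 99.6, 215 and 190.0 FPKM at 400 d (a log2 change of 2.01 ± 0.30, adjusted p = 0.0143). Its lowest 400 d value was 2.13 times its highest 60 d value. ACADM, a dehydrogenase of the oxidation cycle, was at 74.9, 103 and 85.1 FPKM at 60 d and 159.7, 180.0 and 176 FPKM at 400 d (a log2 change of 1.01 ± 0.20, adjusted p = 0.0224). PDK4, the kinase that shifts fuel use from glucose to fat, spanned 4.05, 172 and 117 FPKM at 60 d and 42.9, 360.4 and 422 FPKM at 400 d, so that both ages held low and high libraries (a log2 change of 1.52 ± 1.15, adjusted p = 0.373). HADHA, another enzyme of the cycle, had a log2 change of 0.59 ± 0.20 and passed only in the fit of all 12 libraries (0.0876 against 0.0488). That fit called 6 members higher, adding CPT2, SLC25A20 and ETFDH, and 2 to 6 with a library left out.

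**Figure D4:**
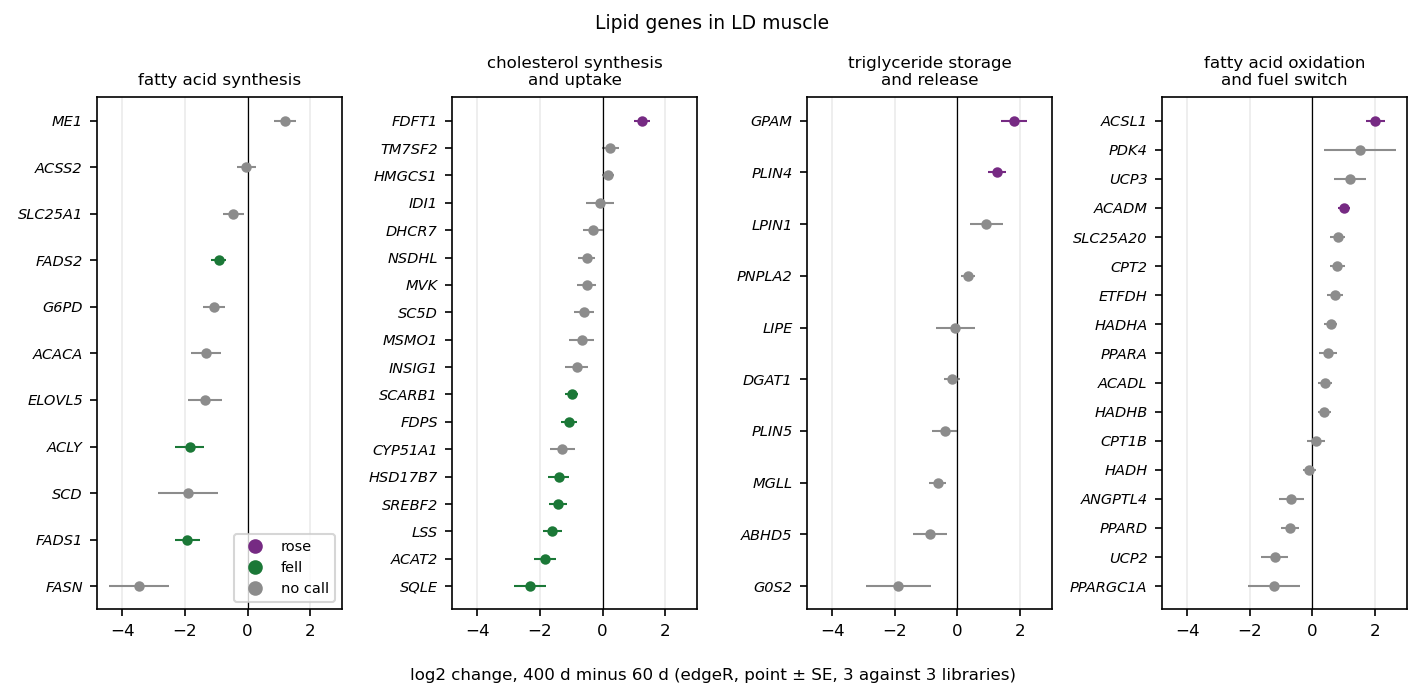
Log2 change from 60 d to 400 d (horizontal axis, point ± SE, edgeR) of every tested member of 4 lipid lists, in order of size. Purple points rose, green points fell and grey points were not called. The called points are green in the synthesis lists, apart from FDFT1 in the cholesterol list. In the storage and oxidation lists 2 points each are purple, while 8 and 15 are grey.

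Glycolysis gave a call in each direction and the respiratory chain a few falls. The called shares were 14.3% and 17.6%, near the 14.1% over all features tested. Of 14 glycolytic and glycogen genes PHKA1, the muscle subunit of the kinase that switches on glycogen breakdown, rose (a log2 change of 1.16 ± 0.31, adjusted p = 0.0454) and PGAM2, the muscle phosphoglycerate mutase, fell (a log2 change of -0.99 ± 0.27, adjusted p = 0.0463). GAPDH, ENO3 and PYGM, the most abundant other members, had log2 changes of -0.40 ± 0.25, -0.80 ± 0.25 and 0.11 ± 0.24 without a call. The fit of all 12 libraries called 1 member higher and 3 lower, ENO3 among them (adjusted p = 0.0243), and 0 to 4 lower with a library left out. DESeq2 called 1 higher and 4 lower, and with transcript length offsets 1 was higher and 0 lower. Of 17 nuclear genes of the respiratory chain 3 fell and none rose. COX4I1, a subunit of cytochrome oxidase, was at 1517, 1347 and 923 FPKM at 60 d and 598, 595 and 674 FPKM at 400 d (a log2 change of -0.98 ± 0.23, adjusted p = 0.0331). COX5B, another subunit, fell by 0.84 and NDUFV1, a subunit of complex I, by 1.01 on the log2 scale (adjusted p = 0.0341 and 0.0345). NDUFA4, the most abundant member, and COX5A were not called (0.113 and 0.143). The fit of all 12 libraries called 5 members lower, and 2 to 6 with a library left out. In 60 d library 3, which also had the lowest mitochondrial share of counts, NDUFA4, COX4I1, COX5A and COX5B were the lowest of their age.

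Genes of muscle protein breakdown gave 3 rises and 1 fall among 14, with 2 rises with DESeq2 size factors and 1 with total counts. This made 28.6% called, beside 14.1% over all features tested. CAPN3, the calpain of muscle, was at 132, 114 and 109 FPKM at 60 d and 234, 233 and 240.3 FPKM at 400 d (a log2 change of 1.03 ± 0.19, adjusted p = 0.0197), and the 400 d libraries differed among themselves by less than 10 FPKM. FOXO4, a transcription factor that insulin signalling holds back, was at 19.6, 34.1 and 20.2 FPKM at 60 d and 39.7, 44.5 and 43.7 FPKM at 400 d (a log2 change of 0.91 ± 0.22, adjusted p = 0.0366), and MAP1LC3B, a component of autophagosomes, at 39.3, 58.5 and 44.5 FPKM at 60 d and 65.97, 101 and 81.3 FPKM at 400 d (a log2 change of 0.84 ± 0.23, adjusted p = 0.0494). CTSL, a protease of lysosomes, fell, at 2.23, 1.37 and 4.91 FPKM at 60 d and 0.372, 0.274 and 0.671 FPKM at 400 d (a log2 change of -2.53 ± 0.59, adjusted p = 0.0323). FBXO32, the ubiquitin ligase best known from wasting muscle, was at 2.63, 45.3 and 22.2 FPKM at 60 d and 86.7, 91.98 and 85.4 FPKM at 400 d and not called (a log2 change of 2.19 ± 0.73, adjusted p = 0.0788). SQSTM1, a cargo receptor of autophagy, was at 132, 227 and 282 FPKM at 60 d and 494, 1022 and 394 FPKM at 400 d (a log2 change of 1.49 ± 0.42, adjusted p = 0.052) and TRIM63, the other well known ligase, had a log2 change of 0.67 ± 0.46.

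In insulin and growth factor signalling, GHR, the growth hormone receptor, rose and the binding proteins IGFBP4 and IGFBP6 fell, among 11 tested members. Of this list 27.3% was called, beside 14.1% over all features tested. GHR was at 14.2, 25.99 and 17.3 FPKM at 60 d and 36.9, 35.9 and 43.4 FPKM at 400 d (a log2 change of 1.18 ± 0.20, adjusted p = 0.018). IGFBP4 was at 42.5, 31.2 and 47.1 FPKM at 60 d and 10.15, 4.59 and 8.06 FPKM at 400 d (a log2 change of -2.34 ± 0.33, adjusted p = 0.0142) and IGFBP6 at 111, 89.7 and 49.4 FPKM at 60 d and 24.6, 13.7 and 23.8 FPKM at 400 d (a log2 change of -1.98 ± 0.35, adjusted p = 0.0187), and the lowest 60 d value was 3.07 and 2.01 times the highest 400 d value. IGF1 itself was at 17.6, 5.4 and 4.59 FPKM at 60 d and 4.24, 1.87 and 3.01 FPKM at 400 d (a log2 change of -1.32 ± 0.62, adjusted p = 0.17), with 60 d library 1 far above the other 5. AKT2 and GRB10, the most abundant signalling members without a call, had log2 changes of 0.17 ± 0.19 and 0.28 ± 0.24.

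Cell cycle genes were low at both ages and lower at 400 d in 3 of 15 tested members. With none higher, 20% of the list was called, beside 14.1% over all features tested. TOP2A, which untangles DNA before division, was at 1.7, 1.27 and 2.59 FPKM at 60 d and 0.551, 0.128 and 0.278 FPKM at 400 d (a log2 change of -2.47 ± 0.51, adjusted p = 0.025). MCM2, part of the replication helicase, was at 2.19, 0.951 and 2.15 FPKM at 60 d and 0.648, 0.382 and 0.404 FPKM at 400 d (a log2 change of -1.82 ± 0.42, adjusted p = 0.0313), and CDK1, the kinase of mitosis, at 1.25, 0.802 and 1.53 FPKM at 60 d and 0.402, 0.148 and 0.198 FPKM at 400 d (a log2 change of -2.14 ± 0.56, adjusted p = 0.0429). The median log2 change of the list was -1.80. No overlap between the ages was seen in 12 of the 15 tested members, beside 39.6% of all features tested. Some of these members had few reads: CDK1, CCNB1, CCNB2 and PLK1 averaged 4, 4, 3 and 2 counts at 400 d. TOP2A and MCM2 averaged 27 and 23.3. AURKB was not called (a log2 change of -0.80 ± 0.35, adjusted p = 0.15), and TPX2, the other of the most abundant members, was at 2.6, 1.58 and 2.11 FPKM at 60 d and 2.51, 1.42 and 2.13 FPKM at 400 d (a log2 change of 0.06 ± 0.29, adjusted p = 0.892). In the fit of all 12 libraries 9 members fell, or 2 to 9 when a library was left out.

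The interferon response was the list with the largest share of calls among those with more than 3 tested members. Of 14 tested members 10 fell and none rose, and all 14 log2 changes were below 0. In all 14 the ages did not overlap, beside 39.6% of all features tested. MX1, an antiviral GTPase, was at 26.4, 7.95 and 38.3 FPKM at 60 d and 3.06, 1.43 and 3.46 FPKM at 400 d (a log2 change of -3.17 ± 0.59, adjusted p = 0.021). USP18, which removes ISG15 from proteins, was at 9.05, 5.36 and 9.89 FPKM at 60 d and 1.42, 1.35 and 1.96 FPKM at 400 d (a log2 change of -2.34 ± 0.37, adjusted p = 0.0155). The transcription factors IRF7 and IRF9 were at 15.4, 6.3 and 10.8 FPKM at 60 d and 2.58, 1.999 and 1.78 FPKM at 400 d and at 23.9, 16.01 and 17.7 FPKM at 60 d and 6.86, 3.46 and 7.51 FPKM at 400 d (a log2 change of -2.30 ± 0.36, adjusted p = 0.0155, and a log2 change of -1.65 ± 0.31, adjusted p = 0.0216). IFIT2, IFIT5, MX2, RSAD2, IFI44 and IFI44L also fell, by between 1.27 and 2.28 on the log2 scale. OAS2, IRF1, STAT2 and HERC6 were not called, with adjusted p between 0.0621 and 0.194. The fit of all 12 libraries called 11 members lower, and 5 (without 400 d library 2) to 11 with a library left out. The median log2 change of the list stayed between -2.04 and -1.49 with any 1 of the 6 libraries left out, and 400 d library 2 was the lowest of the 6 in 13 of 14 members. Leukocyte markers, given above, were also lowest in sum in 400 d library 2, and their part in this result was not tested.

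A minority of the chaperones of the heat shock response fell. Of 18 tested members 6 fell and 1 rose, while 11 were not called, with a median log2 change of -1.18. HSPA1L (chromosome GL896522.1, 3 to 1799) was at 9544, 1647 and 13941 FPKM at 60 d and 182, 378 and 468 FPKM at 400 d (a log2 change of -4.58 ± 0.79, adjusted p = 0.018). This gene lies beside nearly identical copies of the heat-inducible HSP70, so its reads cannot be assigned to it with certainty. DNAJA1, DNAJB4 and DNAJB1 are co-chaperones of HSP70. DNAJA1 was at 143, 123 and 623 FPKM at 60 d and 31.8, 34.6 and 24.1 FPKM at 400 d (a log2 change of -3.27 ± 0.64, adjusted p = 0.0224), DNAJB4 at 133, 136 and 415 FPKM at 60 d and 31.2, 48.4 and 36.6 FPKM at 400 d (a log2 change of -2.53 ± 0.48, adjusted p = 0.0213), and DNAJB1 at 439, 26.6 and 135 FPKM at 60 d and 8.85, 11.2 and 15.3 FPKM at 400 d (a log2 change of -3.56 ± 0.84, adjusted p = 0.0335). HSPH1, which exchanges the nucleotide of HSP70, was at 172, 33.7 and 237 FPKM at 60 d and 12.7, 21.7 and 9.005 FPKM at 400 d (a log2 change of -3.32 ± 0.68, adjusted p = 0.0242), and HSPA5, the HSP70 of the endoplasmic reticulum, at 84.5, 63.1 and 124.7 FPKM at 60 d and 41.003, 39.95 and 37.3 FPKM at 400 d (a log2 change of -1.17 ± 0.27, adjusted p = 0.0308).

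The 60 d libraries lay farther apart than the 400 d libraries in these 6 genes, with the highest value 8.47 times the lowest at 60 d against 2.57 times at 400 d for HSPA1L, and 16.5 against 1.73 times for DNAJB1. Library 3 was the highest in HSPA1L, DNAJA1, DNAJB4, HSPH1 and HSPA5, and library 1 in DNAJB1. HSPB8, a small heat shock protein, was at 464, 672 and 2909 FPKM at 60 d and 377, 622 and 335 FPKM at 400 d (a log2 change of -1.70 ± 0.68, adjusted p = 0.121) and HSP90AA1, the inducible HSP90, at 504, 295 and 868 FPKM at 60 d and 346, 361 and 196 FPKM at 400 d (a log2 change of -0.85 ± 0.42, adjusted p = 0.183), both with 60 d library 3 on top and without a call. HSPB6, a small heat shock protein of muscle, rose, at 87.3, 63.001 and 58.4 FPKM at 60 d and 108, 134 and 118 FPKM at 400 d (a log2 change of 0.82 ± 0.22, adjusted p = 0.0448). The fit of all 12 libraries called 9 members lower, and 6 to 12 with a library left out.

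Immediate early genes, which cells switch on within minutes of a stimulus, fell in 6 of 15 tested members, and none rose. ANKRD1, a stretch-responsive muscle gene, was at 82.2, 820.0 and 3581 FPKM at 60 d and 32.6, 60.4 and 28.2 FPKM at 400 d (a log2 change of -5.20 ± 1.19, adjusted p = 0.0313). IER3 was at 39.1, 11.9 and 20.8 FPKM at 60 d and 1.22, 0.974 and 3.09 FPKM at 400 d (a log2 change of -3.66 ± 0.55, adjusted p = 0.0143) and MYC at 22.2, 12.9 and 26.4 FPKM at 60 d and 1.43, 3.24 and 6.49 FPKM at 400 d (a log2 change of -2.36 ± 0.52, adjusted p = 0.0282). NR4A3, ATF3 and JUNB, all transcription factors, had log2 changes of -4.28 ± 1.01, -3.22 ± 0.87 and -2.66 ± 0.73 (adjusted p = 0.034, 0.0461 and 0.0484), and JUNB did not pass in the fit of all 12 libraries (0.0929). FOS was at 726, 187 and 127 FPKM at 60 d and 1.66, 266 and 214 FPKM at 400 d (a log2 change of -1.07 ± 1.27, adjusted p = 0.571) and DUSP1, a phosphatase of the same response, at 409, 239 and 105 FPKM at 60 d and 13.35, 256 and 257 FPKM at 400 d (a log2 change of -0.49 ± 0.89, adjusted p = 0.714). In both genes 400 d library 1 was the lowest of all 6, while the other 400 d libraries lay within the range of 60 d. That fit called 7 members, and 2 to 6 with a library left out. How long after death or at what time of day each muscle was taken is not given in the sources used here, and its part in the heat shock, immediate early and clock genes was not tested.

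**Figure D5:**
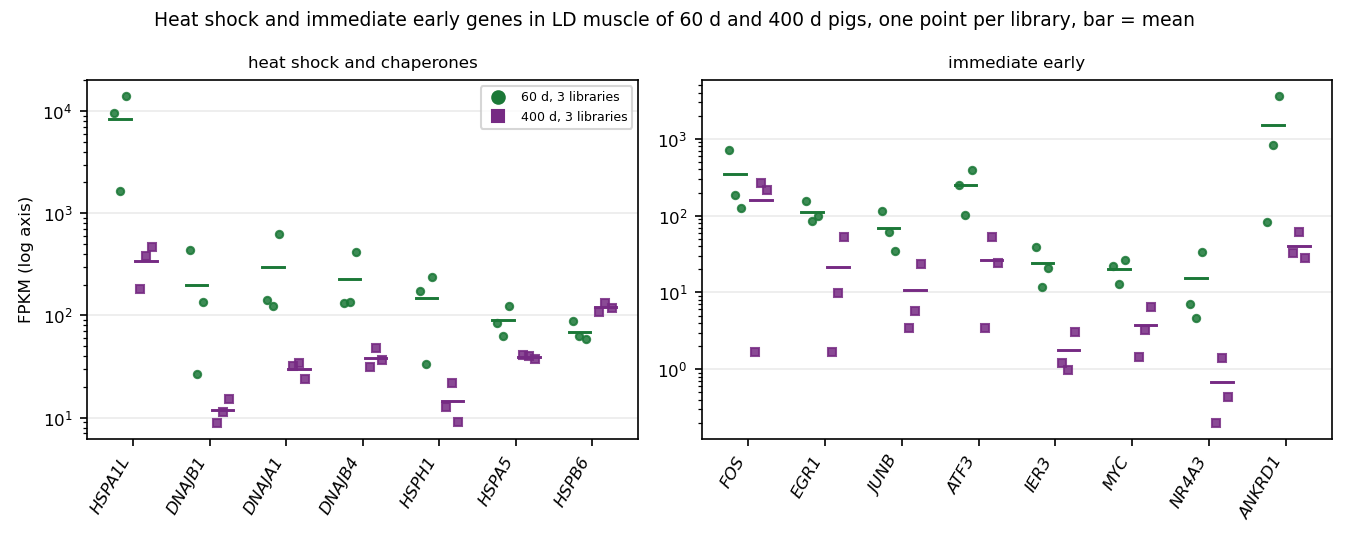
FPKM on a log axis for 7 heat shock and chaperone genes and 8 immediate early genes, with 1 point per library, green circles for 60 d, purple squares for 400 d and a bar at the mean of 3. The 60 d points of most chaperones spread over a wider range than the 400 d points, HSPB6 is the gene that rose, and FOS overlaps between the ages with 1 low 400 d library.

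Of 11 clock genes 2 rose and 1 fell, which is 27.3% called beside 14.1% over all features tested. The median log2 change of the list was 0.31. BHLHE41, a repressor within the clock, was at 1.07, 1.02 and 1.54 FPKM at 60 d and 12.8, 12.4 and 5.33 FPKM at 400 d (a log2 change of 3.10 ± 0.38, adjusted p = 0.0132), and NR1D2, a nuclear receptor that represses clock genes, at 10.6, 18.4 and 22.3 FPKM at 60 d and 54.4, 44.9 and 46.1 FPKM at 400 d (a log2 change of 1.53 ± 0.30, adjusted p = 0.0228). NFIL3, a repressor that the clock controls, was at 9.52, 39.6 and 33.2 FPKM at 60 d and 0.77, 1.52 and 1.43 FPKM at 400 d (a log2 change of -4.47 ± 0.60, adjusted p = 0.0132), with the lowest 60 d value 6.29 times the highest 400 d value. PER1 and CRY2, members of the core loop, had log2 changes of 0.31 ± 0.41 and -0.26 ± 0.30 and were not called.

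The features with the smallest adjusted p that rose came from several functions outside these lists. PTER (chromosome 10, 50075252 to 50178234) was at 3.79, 3.44 and 3.68 FPKM at 60 d and 17.6, 22.8 and 17.005 FPKM at 400 d (a log2 change of 2.37 ± 0.21, adjusted p = 0.0111), a mean 5.26-fold higher at 400 d. PGM2L1 (chromosome 9, 9525558 to 9601027), which makes the glucose bisphosphate that activates phosphoglucomutase, was at 2.88, 3.92 and 4.61 FPKM at 60 d and 21.1, 24.4 and 24.9 FPKM at 400 d (a log2 change of 2.68 ± 0.24, adjusted p = 0.0111), and EIF4E3, a cap-binding protein, at 3.37, 4.84 and 5.57 FPKM at 60 d and 10.5, 15.05 and 15.6 FPKM at 400 d (a log2 change of 2.18 ± 0.20, adjusted p = 0.0111). ACVR2B, a receptor for myostatin and activins, was at 1.46, 2.32 and 2.14 FPKM at 60 d and 5.57, 7.51 and 5.95 FPKM at 400 d (a log2 change of 1.86 ± 0.23, adjusted p = 0.0132). The absence of overlap in these genes is fixed by the naming rule. The log2 changes are those of counts, which can differ from changes in FPKM. EIF4E3 averaged 154 counts at 60 d and 779 at 400 d, while its mean FPKM was 2.99-fold higher at 400 d.

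LIMK1, the kinase that stabilizes actin filaments through cofilin, was at 17.5, 16.04 and 19.1 FPKM at 60 d and 62.2, 76.7 and 51.5 FPKM at 400 d (a log2 change of 1.91 ± 0.23, adjusted p = 0.0132). PDZRN3, a ubiquitin ligase of the neuromuscular junction, was at 21.8, 20.9 and 16.2 FPKM at 60 d and 61.7, 65.9 and 55.5 FPKM at 400 d (a log2 change of 1.65 ± 0.19, adjusted p = 0.0132), and TAB2, an adaptor of the kinase TAK1, at 13.9, 12.7 and 12.2 FPKM at 60 d and 35.1, 37.2 and 31.7 FPKM at 400 d (a log2 change of 1.45 ± 0.17, adjusted p = 0.0132). The remaining ones were RABEP2, TEX9, SLC35G1, VSIG10, the transcription factor RFX7 and the zinc finger genes ZNF770, ZNF318 and ZC3H6, with log2 changes between 1.497 and 2.54. At 120 d and 240 d the mean of PGM2L1 was 11.9 and 17.5 FPKM, between its means at 60 d and 400 d.

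Of the 15 that fell, ACTC1, TNNT2, MYOD1, CNN1 and NFIL3 are described above. In all 15 the absence of overlap is likewise fixed by the naming rule. ENHO (chromosome 10, 36432756 to 36433507), which encodes the secreted peptide adropin, was at 356, 131 and 266 FPKM at 60 d and 34.97, 17.1 and 18.7 FPKM at 400 d (a log2 change of -3.36 ± 0.44, adjusted p = 0.0132), a mean 10.6-fold higher at 60 d. DYNLL1, a light chain of dynein, was at 205, 154 and 129.5 FPKM at 60 d and 33.3, 40.97 and 27.1 FPKM at 400 d (a log2 change of -2.23 ± 0.24, adjusted p = 0.0132). PLK2, a polo-like kinase, was at 9.34, 9.04 and 10.7 FPKM at 60 d and 1.29, 1.54 and 2.69 FPKM at 400 d (a log2 change of -2.35 ± 0.31, adjusted p = 0.0132). The lowest 60 d value was 3.16 times the highest 400 d value in DYNLL1 and 3.35 times in PLK2.

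TPST1, which adds sulfate to tyrosines of secreted proteins, was at 10.9, 9.49 and 8.99 FPKM at 60 d and 2.34, 2.13 and 2.69 FPKM at 400 d (a log2 change of -1.94 ± 0.21, adjusted p = 0.0132), and DSE, an epimerase of dermatan sulfate in the matrix, at 3.54, 4.38 and 4.66 FPKM at 60 d and 1.06, 0.76 and 1.24 FPKM at 400 d (a log2 change of -2.002 ± 0.27, adjusted p = 0.0132). ADAMTS20, a secreted metalloprotease, DCHS1, a large cadherin, UNC5B, a netrin receptor, HIPK4, a kinase, and IRF2BPL had log2 changes between -2.45 and -1.46. All 30 of these features were also called in the fit of all 12 libraries, with adjusted p values between 0.000607 and 0.00373. That fit compares the same 6 libraries, and 97.7% of all 1825 calls recur in it, so the recurrence is no separate support.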

How the data were processed

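RNA of LD muscle was sequenced in 12 libraries, of which the 3 labelled 60 d and the 3 labelled 400 d were compared. The authors deposited raw fragment counts per gene as whole numbers, and FPKM values from Cufflinks. The study gives TopHat2 as the aligner and Sscrofa10.2 as the build, while the submitters' processing notes name Bowtie 0.12.2, Cufflinks and the mouse build mm8. The identifiers in the files are those of pig genes. How fragments were counted and whether strand was used are not given in the sources used here, so overlapping genes and near-identical copies may share reads. FPKM divides by transcript length and by library total.

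The files hold 22658 features, and 11472 were given a symbol through a table of gene names, by which 307 of 465 listed symbols were found. A few genes that belong to these lists are not reported here and are not counted in them. Library totals were 9758829 to 13325327 counts. Features that averaged 10 counts or more at 60 d or at 400 d were tested on the counts with edgeR 4.0.16 (R 4.3.3), using TMM factors, the quasi-likelihood test and Benjamini-Hochberg adjustment over all features tested, and called at an adjusted p of at most 0.05. The standard error of a log2 change is the change divided by the square root of the F statistic. FPKM changes of lists used log2(FPKM + 0.1). The smallest p of an exact permutation test with 3 libraries at each age is 0.1, so it was not used for calls. The tests were tried on simulated counts with known changes. Tables were made under Python 3.11.15 with scipy 1.17.1, numpy 2.4.6 and pandas 2.3.3, and figures with matplotlib 3.10.9.

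Named genes are the 15 in each direction with the smallest adjusted p, an absolute log2 change of at least 1, a mean of at least 50 counts in the higher age, a symbol and no overlap of FPKM; from each list up to 4 called members in each direction; its 3 members with the highest FPKM; and members a list is best known for. The remaining called members of lists were named after their values were seen. The members and lists were chosen with earlier results of these data known. Alternatives were DESeq2 1.42.0, other scalings, other count minimums, a stricter threshold, all 12 libraries in 1 fit and each library left out. Transcript length offsets and omissions within the fit of all 12 libraries were added after seeing the data. The other 2 ages are described only through the shared fit and a few means.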

Additional observations from a re-analysis of the deposited data

How the results depend on the processing

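No paired analysis was possible because GEO's labels give no replicate numbers and the libraries are taken as different pigs. DESeq2 called 2784 features (1236 higher and 1548 lower at 400 d) and the fit of all 12 libraries 3178 (1443 and 1735). Requiring an adjusted p of at most 0.01 and a log2 change of 1 or more in size left 0 features in edgeR with 6 libraries (0 higher and 0 lower), 252 with no count minimum (140 and 112), 5 with length offsets, 4 with total counts, 1314 in DESeq2 and 847 with all 12. With each library left out in turn, the calls ranged from 0 to 1895 (0 to 887 higher, 0 to 1008 lower) with 6 libraries and from 1378 to 2776 (681 to 1281 higher, 697 to 1568 lower) in the fit of all 12. Scaling by DESeq2 size factors (1796) or total counts (1533), no count minimum (1833), at least 50 counts (1738) and length offsets (1829) left the number within 1.5 times. Under the ages of the supplementary table the sign turns, so that 932 features would count as higher and 893 as lower at the older age. The median correlation of 60 d with 400 d libraries was 0.914 with a pseudocount of 1 and 0.822 over features that reached 10 FPKM somewhere.

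Of the 175 genes followed through all settings, 115 were called. Their log2 changes kept their direction in 1385 of 1390 values under other settings and in 1025 of 1049 with a library left out. The direction turned with a library left out for the following genes, none of which was called and whose changes ranged over ACSS2 (-0.26 to 0.20), CIDEC (-1.17 to 0.0053), DUSP1 (-0.90 to 0.043), FOS (-1.67 to 0.058), G0S2 (-2.53 to 0.66), IDI1 (-0.50 to 0.36), KRT8 (-1.09 to 0.11), PER1 (-0.069 to 0.82), PLIN1 (-0.47 to 1.26), TNNC1 (-0.61 to 0.10), TNNI1 (-0.17 to 0.58), TNNT1 (-0.22 to 0.54) and TPX2 (-0.16 to 0.21). It also turned for TNNT1 (-0.016) and TPX2 (-0.0093) with at least 50 counts, and for TPX2 (-0.050), IDI1 (0.10) and AKT2 (-0.16) with length offsets. The calls of ID2, PRKAG3 and JUNB ended in the fit of all 12 libraries, those of MEF2C, FADS2, FOXO4, MAP1LC3B, TIE1, ESAM and EGFL7 with total counts, and those of MEF2C, CDK1, PGAM2, CAPN3 and HSPB6 with length offsets. Of 243 alternative list medians 13 moved by more than the spread between libraries. The cause of these differences was not tested, and a fit with a library left out has 3 residual degrees of freedom in place of 4.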

Other observations

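Where the 120 d and 240 d libraries lie was looked at for the called features. Of the 1825 features called between 60 d and 400 d, 1269 (69.5%) had both middle ages between the means of 60 d and 400 d on the log2(FPKM + 0.1) scale, against 4168 (32.1%) of the 12976 tested. In 1114 (61.0%) of the called and 3176 (24.5%) of the tested features the 4 means were in the order of age. The features were chosen by the difference between the outer ages, so the shares are a description.

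ANKRD1 and PDK4 departed from this order of the labels in different ways. By mean FPKM, both middle ages lay between the outer ages in ANKRD1 but not in order, and outside them in PDK4. ANKRD1 had means of 1494, 307, 817 and 40.4 FPKM at 60, 120, 240 and 400 d. PDK4 had means of 97.6, 21.8, 732 and 275 FPKM at the same ages, and within 60 d alone its 3 libraries ran from 4.05 to 172 FPKM.

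Of the newly assembled genes without an Ensembl identifier, 1144 were tested, 67 rose and 70 fell, and they were not named here.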
